A study of Mus musculus with 5 samples.

Results

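The Hox genes are the 39 homeobox genes of the 4 mouse clusters A to D. They were taken from the count table by symbol, Hox followed by a cluster letter and a paralogue number, and all 39 had a row among the 23441 rows of the table, including those with few or no counts. The libraries were made from poly(A) RNA of mandibular tissue at embryonic day 10.5. The 3 control libraries came from Yapf/f, Tazf/f embryos of the 129SvEv background with no Cre named, and the 2 dCKO libraries from Wnt1Cre; Yapf/f, Tazf/f embryos whose background was C57BL/6J x CBA/J; 129SvEv. Genotype and strain background cannot be told apart. All groups carried the floxed alleles. Wnt1Cre is active in the dorsal neural tube and the premigratory neural crest, so the epithelium, mesoderm, endothelium and blood of the arch are not expected to carry the deletion.

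Hox genes encode transcription factors that give cells a position along the head-to-tail axis, and within a cluster low paralogue numbers are in general expressed farther forward than high ones. The neural crest that fills the mandibular part of the first pharyngeal arch is known for lacking Hox expression, whereas the crest of the second arch expresses Hoxa2, which is needed there to keep its skeleton from taking on a first arch form. Hox transcripts in dissected first arch tissue can for this reason serve as a check on the presence of second arch or hindbrain tissue. The question addressed here was which Hox transcripts were counted in each library and whether any differed between dCKO and control tissue.

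Totals ranged from 6491137 to 7439419 counts in the controls and were 11346480 and 13298973 in the dCKO libraries. Levels are given as counts-per-million (CPM) values with TMM scaling, a scaling of library sizes that trims the most extreme genes. Yap1, a target of the deletion, measured from 311.8 to 512.1 CPM in the controls, against 174.6 and 169.9 CPM in the dCKO libraries, and Wwtr1, the gene of Taz, fell as well (log2 fold change −1.31 with an SE of 0.20, edgeR adjusted p = 1.56e-04). Globin transcripts took from 0.335% to 0.441% of all counts in the controls and 7.43% and 5.30% in the dCKO libraries. Of 10 listed globin genes 6 had no count and the other 4 were all called higher (edgeR). Some libraries stood apart in other ways. Hand1, a gene of the distal arch, measured 5.50 CPM in control replicate 3 and at least 70.1 in every other library, and Myl2, a heart muscle gene, measured 28.5 in control replicate 1 and at most 2.90 elsewhere. No label tells whether the libraries of a group came from different embryos, and the p-values then cover the spread of these libraries alone, which may be technical. Of 8 heart genes read for a second source of tissue, 4 were tested and Myl2 was called lower (edgeR), a call that DESeq2 did not make and that was lost without control replicate 1 or without either dCKO library. Among all genes tested, edgeR called 1.42% lower. Of 9 genes of the trunk and limb 2 were tested and edgeR called 0, with 0 at an unadjusted p below 0.05 and 0 by DESeq2 or limma-voom.

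Of the 39 Hox genes, 2 (Hoxa2 and Hoxb2) had enough counts for the test with a filter on low counts, and 30 could be tested without it. Hoxa2 rose in dCKO tissue, and it was the only one to pass either test. It is the main Hox gene of the second arch crest, and in the hindbrain its expression reaches farther forward than that of any other Hox gene. The gene had 1 count in control replicate 1, none in the other controls, 44 in dCKO replicate 1 and 41 in dCKO replicate 2. In CPM this was 0.131 in control replicate 1 against 4.07 (exact Poisson interval 2.95 to 5.46) and 3.14 (2.25 to 4.26) in the dCKO libraries. For the 2 controls without a count, 3 counts set an upper limit of 0.406 and 0.458 CPM. Every dCKO library was thus above every control, by more than counting error. Intervals and limits of this kind are at the 95% level and cover counting error only.

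Over the pooled libraries of each group Hoxa2 was 76.7 times as abundant in dCKO as in control tissue, with an exact interval of 13.4 to 3065, wide because the controls held 1 count. The ratio was 50.4 without control replicate 2 and between 53.4 and 87.6 without control replicate 3 or either dCKO library. With edgeR's quasi-likelihood test over 12710 genes that pass a filter on low counts, its fitted log2 fold change was 5.91 (SE 0.82, adjusted p = 5.86e-05). Hoxa2 passed that filter only through the dCKO libraries. In the test over every gene with at least 1 count, where it was not selected in this way, the fitted log2 fold change was 5.91 (SE 0.84, edgeR adjusted p = 1.56e-10). Of the 18611 genes tested there, 6.21% were called, 4.57% higher and 1.64% lower in dCKO. With the filter 6.42% of the 12710 genes were called, 5% higher and 1.42% lower. The adjusted p over every gene with at least 1 count can be small where 1 library carries the difference. For Myl2, high in control replicate 1 alone, it was 8.07e-17 in that fit and 0.0451 with the filter (edgeR). In the authors' deposited table Hoxa2 was 20.4 times higher in dCKO, with an adjusted p of 5.74e-06, and it was the 1 Hox gene of 30 listed there with an adjusted p below 0.05. The smaller fold there goes with means that hold 1 added count per library.

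The Hoxa2 call held in each of the 16 other fits in which it could be tested, with fitted log2 fold changes from 5.15 to 8.09 and an adjusted p of at most 0.00315. The value of 8.09 came from the fit without control replicate 1, which leaves controls with no count. Against a floor of 3 counts over the remaining controls, the ratio of Hoxa2 in dCKO was 16.5, and the exact interval of the pooled ratio began at 13.2. In bulk tissue a gain in the number of cells that express a gene and a gain in the transcripts per cell cannot be told apart. For 16 neural tube genes below the filter, the summed level was 2.10, 2.03 and 1.68 CPM in the controls. In the dCKO libraries it was 4.34 and 3.68 CPM. Pax3, a gene of the neural crest as well, was among them, with a mean of 0.220 CPM in the controls and 1.19 CPM in dCKO tissue. Sox2, the 1 listed neural tube gene above the filter, had a mean of 20.6 CPM in the controls and 22.0 CPM in dCKO tissue. The globin share was also higher in the dCKO libraries. The groups overlapped for the sums of 7 trunk and limb genes below the filter (4.47, 2.30 and 4.74 against 4.44 and 4.59 CPM) and of 4 heart genes (6.18, 2.03 and 2.60 against 5.36 and 2.30 CPM). The part of the neural tube and globin transcripts in the Hoxa2 result was not tested. The number of genes called over the whole table depended on the libraries. It was 816 with all of them and 485, 1637, 442 and 483 without control replicate 1, control replicate 3, dCKO replicate 1 or dCKO replicate 2.

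**Figure D1:**
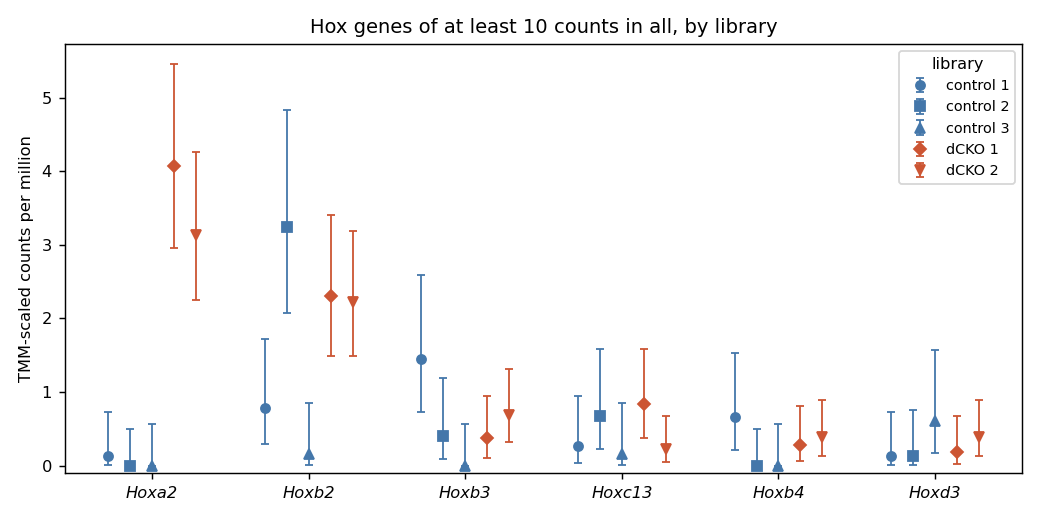
Level (CPM) of 6 Hox genes with at least 10 counts in all, one point per library (controls blue, dCKO red) with its exact 95% Poisson interval. Hoxa2 lies between 3.14 and 4.07 in the dCKO libraries and at or below 0.131 in the controls, whereas the points of the controls and dCKO libraries overlap for the other 5 genes shown.

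The stretch upstream of the Hoxa2 start is shown because Hoxa2 is the only member called. It is the 250 bases before the transcription start at chr6:52164832-52165081 (GRCm38.p6, minus strand), from RefSeq. The files use mm9, a different build, so these coordinates do not apply to them. Capitals mark the only match, on the opposite strand, to TGATNNAT, the bipartite motif bound by Hox proteins together with their Pbx partners.
Hoxa2: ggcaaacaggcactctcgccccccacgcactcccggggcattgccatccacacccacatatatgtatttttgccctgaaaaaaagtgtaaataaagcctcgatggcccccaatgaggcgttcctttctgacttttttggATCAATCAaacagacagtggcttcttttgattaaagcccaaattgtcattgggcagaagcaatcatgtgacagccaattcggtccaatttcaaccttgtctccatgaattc
The match ATCAATCA lies 111 to 104 bases before the start. The motif was searched on both strands, and TGATNNAT or its reverse complement ATNNATCA is in 7.68% of all 32851 promoter stretches of 250 bases. Promoters were found for 22 of the 39 Hox genes, and 4 of those genes (Hoxa2, Hoxb1, Hoxb8 and Hoxd11) hold it. TATAAA, searched in the same way, is in 12.4% of all stretches and not in that of Hoxa2. A match is a description of these letters and not evidence of binding.

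The second member with a measurable level was Hoxb2, the paralogue of Hoxa2 in cluster B, which is expressed in the hindbrain and in the crest of the second arch. The controls held 6, 24 and 1 counts of Hoxb2 and the dCKO libraries 25 and 29. The controls thus measured 0.788, 3.25 and 0.153 CPM and the dCKO libraries 2.31 and 2.22 CPM. Control replicate 2 was higher than both dCKO libraries, so the groups overlapped, and Hoxb2 did not pass the test (fitted log2 fold change 0.67 ± 0.64 SE, adjusted p = 0.585 in edgeR). The result rested on that library. Without control replicate 2 the fitted log2 fold change was 2.17 (SE 0.69, edgeR adjusted p = 0.0610), and over every gene with at least 1 count it was 2.19 with an adjusted p of 0.0363 in edgeR.

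Hoxb2 and Hoxa2 differed in their order over the libraries. Control replicate 2 had the highest Hoxb2 level of all 5 libraries and no Hoxa2 count. Within the dCKO libraries Hoxa2 was the more abundant of the pair per length of transcript. Its mean was 2.03 CPM per kilobase, against 1.39 for Hoxb2, while in the controls the means were 0.0247 for Hoxa2 and 0.857 for Hoxb2. Hoxa3, beside Hoxa2 in cluster A and known for its role in the thymus and parathyroid, had 0 in each control and 1 in each dCKO library.

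Hox levels in the dCKO libraries were far below those of the genes that mark mandibular mesenchyme. Hand2, which patterns the distal arch, had a mean of 93.8 CPM per kilobase in dCKO tissue, 46.2 times that of Hoxa2, and over the 11 listed genes of mandibular mesenchyme the ratio ran from 9.67 for Dlx6 to 98.8 for Twist1. All 11 were tested, 1 rose (Alx4) and 3 fell (Dlx5, Dlx6 and Prrx1) in dCKO tissue, and the median of their log2 fold changes was 0.07. Over all genes tested 5% were called higher and 1.42% lower. The Dlx6 call held with each library left out. That of Dlx5 was lost without any 1 library other than control replicate 3 (edgeR adjusted p up to 0.309), and that of Prrx1 without control replicate 1 or dCKO replicate 1 (up to 0.433).

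Grouped by paralogue number, the low numbers held most of the Hox counts. Groups 1 to 3, whose genes act in the hindbrain and pharyngeal arches, took 246 of 324 Hox counts over all libraries. Groups 4 to 8, which act in the neck and thorax, took 33, and groups 9 to 13, which act in the lower trunk, limbs and tail, took 45. Summed over groups 1 to 3 the level was 2.63, 4.33 and 1.37 CPM in the controls and 8.50 and 7.12 CPM in the dCKO libraries. The 2 dCKO libraries were above all controls, and Hoxa2 made up 4.07 and 3.14 CPM of their sums.

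Group 1 acts early in hindbrain segmentation. Hoxb1, known for its role in the rhombomere that forms the facial nerve, had 0, 1 and 1 counts in the controls and 2 and 1 in the dCKO libraries. Hoxd1, a gene with a role in sensory neurons, had no count in the controls and 3 and 1 in the dCKO libraries.

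In group 3, whose members act in the third arch and the organs that derive from its pouch, the groups overlapped for the summed level. The sums were 1.58, 0.541 and 0.611 CPM in the controls and 0.647 and 1.15 CPM in the dCKO libraries. Hoxb3 had 11, 3 and 0 counts in the controls and 4 and 9 in the dCKO libraries, with a pooled ratio of 0.838 (exact interval 0.363 to 1.92). Hoxd3 had 1, 1 and 4 counts in the controls and 2 and 5 in the dCKO libraries, with a pooled ratio of 1.05 (0.303 to 3.79). Neither was called over every gene with at least 1 count (edgeR adjusted p = 0.926 for Hoxb3 and 0.988 for Hoxd3). Hoxb3 was highest in control replicate 1, the library that also stood out for Myl2, whose part in the Hoxb3 value was not tested.

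**Figure D2:**
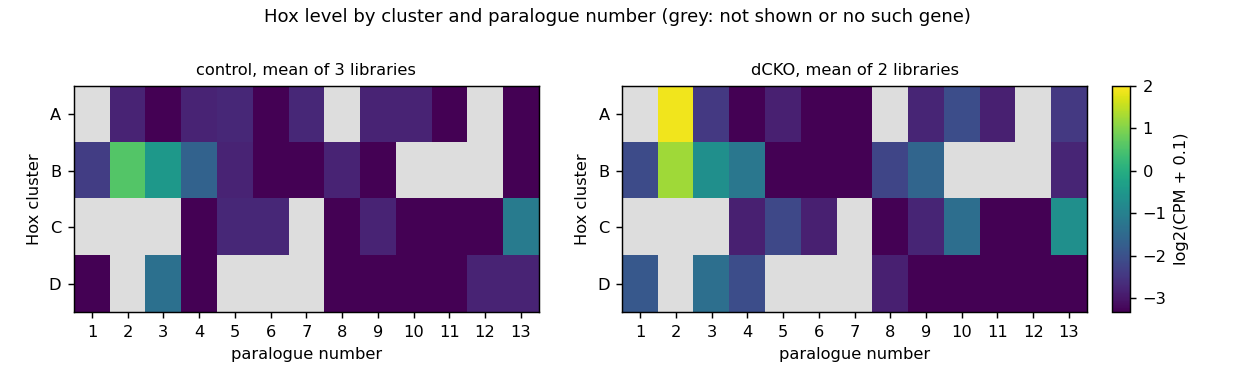
Mean level of each Hox gene as log2(CPM + 0.1), by cluster (rows A to D) and paralogue number (columns), in controls and dCKO tissue, with grey for positions not shown or without a gene. The brightest position in dCKO tissue is Hoxa2, which is dark in the controls, and most positions from number 5 on are dark in both.

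Groups 4 to 8 were close to or at 0 throughout. Hoxb4, a gene also known from blood stem cells, had 5, 0 and 0 counts in the controls and 3 and 5 in the dCKO libraries (pooled ratio 1.44, exact interval 0.416 to 5.61). Hoxd4 had 3 counts, all in dCKO replicate 1, and Hoxb8 had 1 in control replicate 1 and 3 in dCKO replicate 2. Hoxc5 had 4 counts in all, and Hoxa5 and Hoxc6 had 2 each. Hoxa4, Hoxa7, Hoxb5, Hoxc4 and Hoxd8 had a single count each, and Hoxa6, Hoxb6, Hoxb7 and Hoxc8 had none in any library. At these counts a difference between groups was not detectable.

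Groups 9 to 13 differed between the 2 dCKO libraries more than between the groups. Their summed counts were 4, 8 and 1 in the controls, 27 in dCKO replicate 1 and 5 in dCKO replicate 2, or 2.50 and 0.383 CPM in the dCKO libraries. Hoxc10, a gene of the lumbar region and hindlimb, had 6 counts and Hoxb9, a gene of the thoracic skeleton, 5, all of them in dCKO replicate 1, and Hoxa10 had 3 there and 1 in control replicate 1. The unadjusted edgeR p over every gene with at least 1 count was 0.0659 for Hoxc10 and 0.0945 for Hoxb9. Hoxc13, a gene known from hair and tongue epithelium, was the posterior member with the most counts, 2, 5 and 1 in the controls and 9 and 3 in the dCKO libraries, and it was counted in every library, as were Hoxb2 and Hoxd3.

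The remaining posterior genes had at most 2 counts in all. Hoxa13 had 1 count in each dCKO library, and Hoxa9 and Hoxc9 had 1 in control replicate 2 and 1 in dCKO replicate 1. Hoxa11, Hoxb13, Hoxd12 and Hoxd13 had a single count each, and Hoxc11, Hoxc12, Hoxd9, Hoxd10 and Hoxd11 had none in any library. Noncoding transcripts of the clusters were as rare. Hoxa11os, antisense to Hoxa11, had 3 counts, all in dCKO replicate 1, and Hotair, of cluster C, had 2 and 1 in the dCKO libraries and none in the controls.

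By cluster, the groups stood farthest apart in cluster A. Its summed level was 0.394, 0.676 and 0.764 CPM in the controls and 5.64 and 3.91 CPM in the dCKO libraries, and without Hoxa2 it was 0.263, 0.676 and 0.764 CPM against 1.57 and 0.766 CPM. In cluster B the groups overlapped, at 3.02, 3.92 and 0.306 CPM in the controls and 3.70 and 3.60 CPM in the dCKO libraries. Clusters C and D overlapped in CPM as well. Cluster C measured 0.263, 0.812 and 0.458 CPM in the controls and 1.57 and 0.536 CPM in the dCKO libraries, and cluster D 0.263, 0.271 and 0.611 CPM against 0.739 and 0.536 CPM.

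Summed over all 39 genes, the Hox level was 3.94, 5.68 and 2.14 CPM in the controls and 11.6 and 8.58 CPM in the dCKO libraries, a mean of 3.92 ± 1.77 CPM (SD, n = 3) against 10.1 ± 2.17 CPM (SD, n = 2). Every dCKO library lay above every control. Without Hoxa2 the sums were 3.81, 5.68 and 2.14 CPM in the controls and 7.58 and 5.44 CPM in the dCKO libraries. The groups then overlapped. Without Hoxb2 as well they were 3.02, 2.43 and 1.99 CPM in the controls and 5.27 and 3.22 CPM in the dCKO libraries. These sums did not overlap, and the pooled ratio was 1.65 (exact interval 1.18 to 2.35, counting error only). As a share of the Hox counts Hoxa2 took 34.9% and 36.6% in the dCKO libraries. Hoxb2 took 57.1% in control replicate 2, 20% in control replicate 1 and 7.14% in control replicate 3.

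**Figure D3:**
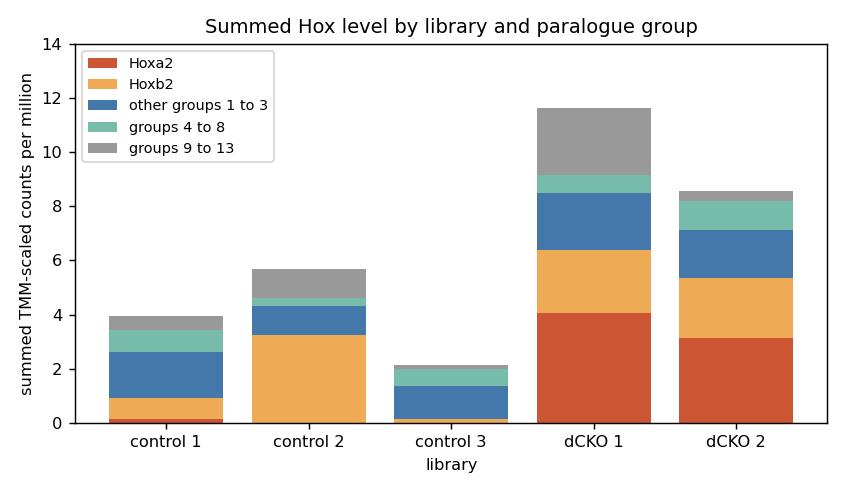
Summed Hox level of each library in CPM, stacked by Hoxa2, Hoxb2, the other genes of paralogue groups 1 to 3, groups 4 to 8 and groups 9 to 13. The Hoxa2 part is seen in the dCKO libraries, the Hoxb2 part is largest in control replicate 2 and the part of groups 9 to 13 is largest in dCKO replicate 1.

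The number of Hox genes with any count was 10, 11 and 9 in the controls and 19 and 18 in the deeper dCKO libraries. At the depth of the smallest library the expected numbers were 9.22, 10.3 and 9 in the controls and 15.7 and 12.8 in the dCKO libraries. Of the 30 Hox genes with a count in any library, 15 had at most 2 counts in all. The levels of both dCKO libraries were above those of all controls for 5 of the 30, Hoxa2 among them, and below them for 0. Over all 18611 genes with a count the corresponding shares were 17% above and 13.5% below. Of these, Hoxa3, Hoxa13 and Hoxd1 differ by few counts.

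Of the 39 Hox genes, 37 did not reach the level needed for the test with the filter. Over every gene with at least 1 count, where 30 could be tested, edgeR called 1 (Hoxa2), and Hoxa2 was also the only one with an unadjusted p below 0.05. The smallest adjusted p among the other 29 was 0.344. The counting of these genes has a limit in the clusters themselves. In the GENCODE M21 annotation, exons of 16 of the 39 genes overlap those of another gene, on the same strand for 9 and on the opposite strand for 10. Hoxa2 shares exon sequence with Gm28308 on the same strand, and Hoxb2 with Hoxb3os on the opposite strand. The sources used here do not say whether the counting used strand, and reads of such pairs cannot be told apart.

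Genes of the hindbrain and of neurons were read beside the Hox genes. Egr2, a gene of hindbrain segmentation, had 1 count in dCKO replicate 2 and none elsewhere. Of 12 listed genes of hindbrain segmentation and Hox regulation, 6 could be tested and edgeR called 0, with unadjusted p below 0.05 for 3 of them (Nr2f1, Nr2f2 and Gbx2). DESeq2 called Nr2f2 alone, and limma-voom 0. Over every gene with at least 1 count edgeR called Nr2f2 and Gbx2, both lower in dCKO tissue (adjusted p = 0.00993 and 0.0188).

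Of 17 listed neural tube genes, 1 was tested (Sox2, not called), and Olig2 and Dbx1 had no count. Pax3, a gene of the dorsal neural tube and the neural crest, had 4, 1 and 0 counts in the controls and 15 and 13 in the dCKO libraries, and 6 of the 17 genes were above all controls in both dCKO libraries, against 17% of all genes with a count. Over every gene with at least 1 count edgeR called 0 of the 15 with a count (adjusted p = 0.122 for Pax3), with an unadjusted p below 0.05 for 1 of them, Pax3. The 17 together summed to 19.3, 26.6 and 21.5 CPM in the controls and 24.4 and 27.6 CPM in the dCKO libraries, most of it Sox2, which arch epithelium also expresses. Of 14 listed genes of neurons and cranial ganglia, 9 below the filter summed to 1.45, 1.89 and 0.917 CPM in the controls and 3.33 and 3.22 CPM in the dCKO libraries, Elavl3 among them with 1, 0 and 0 against 5 and 7 counts. Prrxl1, a gene of sensory neurons, had none, 5 of the 14 were tested, and edgeR called 0, with an unadjusted p below 0.05 for 2 and 0 called by DESeq2 or limma-voom. The part of the neuronal transcripts in the Hoxa2 result was not tested.

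**Figure D4:**
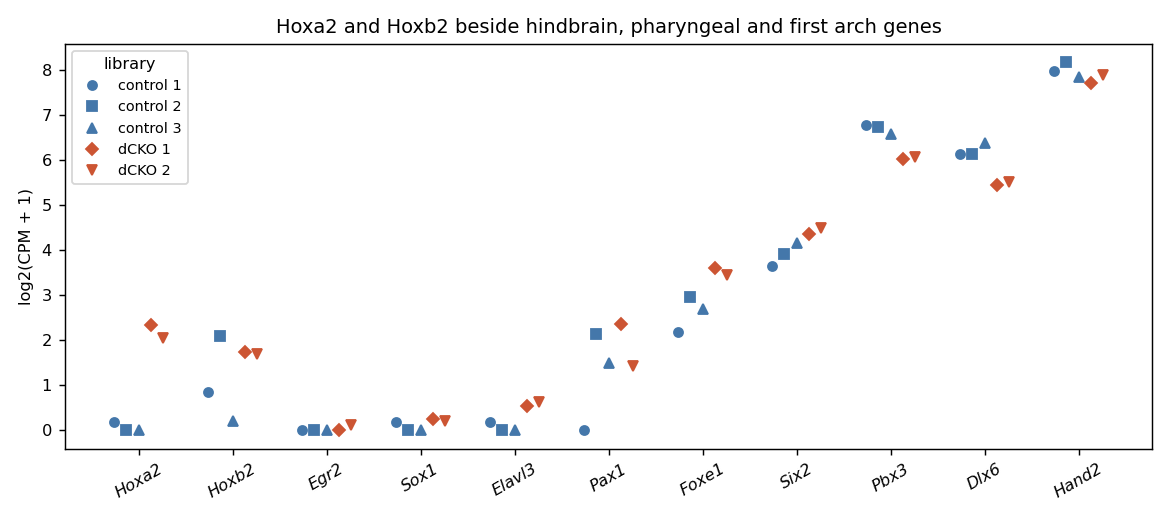
Level as log2(CPM + 1) of Hoxa2 and Hoxb2 beside hindbrain and neural genes (Egr2, Sox1, Elavl3), pharyngeal genes (Pax1, Foxe1) and arch genes (Six2, Pbx3, Dlx6, Hand2), one point per library. Egr2 lies at or next to 0 in every library, and Hand2 lies near the top in every library.

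Of 9 listed genes of the pharyngeal endoderm and pouches, which lie next to the arches, 6 were tested and Foxe1, a forkhead factor of the pharyngeal endoderm and oral epithelium, rose from 3.55, 6.76 and 5.50 CPM in the controls to 11.2 and 9.88 CPM in the dCKO libraries (log2 fold change 0.998, SE 0.28, adjusted p = 0.0407 in edgeR). The Foxe1 call was lost with DESeq2 (adjusted p = 0.0541) and, in edgeR, without control replicate 1 or either dCKO library (adjusted p up to 0.285). Tbx1, a T-box factor of the pharyngeal apparatus, was called in edgeR over every gene with at least 1 count (adjusted p = 0.0183) but not with the filter (adjusted p = 0.0945). Pax1, a marker of the pouches, had no count in control replicate 1, 25 in control replicate 2, 12 in control replicate 3 and 45 and 22 in the dCKO libraries, so that the groups overlapped. With the filter Foxe1 was the only gene of the list called, where 5% of all genes tested were called higher. The list's median log2 fold change was 0.51, against 0.00 over all genes tested, and the part of these genes in the Hoxa2 result was not tested.

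Genes whose level in the second arch depends on Hoxa2 were read beside it. Six2, which Hoxa2 represses in the crest of the second arch, measured 11.4, 14.1 and 16.8 CPM in the controls and 19.6 and 21.4 CPM in the dCKO libraries, and did not pass the test (log2 fold change 0.54, SE 0.20, edgeR adjusted p = 0.117). Of 7 genes listed as lowered or raised by Hoxa2, 6 were tested, Alx4, also counted among the mandibular genes, rose (by 0.48 in log2 fold change, SE 0.12, edgeR adjusted p = 0.0189), and the median log2 fold change was 0.25. By comparison, 5% of all genes tested were called higher and 1.42% lower. The list mixes genes that Hoxa2 lowers with genes that it raises, so the sign of its median has no reading. No expected direction was set for Alx4, and whether its rise goes with Hoxa2 was not tested. The Alx4 call was lost without any 1 library other than control replicate 3 (adjusted p up to 0.131 in edgeR).

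Hox proteins bind DNA with TALE class cofactors, the Pbx, Meis and Pknox families. All 9 listed were tested, 2 fell, 0 rose and the median log2 fold change was −0.11. Pbx3 fell from 107.6, 105.0 and 93.8 CPM in the controls to 63.8 and 65.4 CPM in the dCKO libraries (log2 fold change −0.66, SE 0.12, adjusted p = 0.00116 in edgeR). The groups did not overlap, and the call held with each library left out. Pknox2 fell from 57.4, 72.5 and 77.8 CPM to 44.5 and 47.0 CPM (log2 fold change −0.60, SE 0.14, edgeR adjusted p = 0.0150), a call lost without either dCKO library (adjusted p up to 0.178 in edgeR). Pbx2, the most abundant of them in CPM, stood at 412.0 CPM in the controls and 411.7 CPM in dCKO tissue. Over all genes tested 1.42% were called lower.

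Regulators of Hox transcription were mostly without a call. Of 18 genes of the retinoic acid pathway, which sets the forward limits of Hox expression in the hindbrain, 16 were tested and 1 was called, a share close to the 6.42% called over all genes. Dhrs3, a reductase that limits retinoic acid synthesis and is itself raised by retinoic acid, rose from 4.60, 5.41 and 5.35 CPM in the controls to 11.6 and 13.2 CPM in the dCKO libraries (log2 fold change 1.28, SE 0.25, adjusted p = 0.00230 in edgeR). That call was lost without dCKO replicate 2 (adjusted p = 0.0583 in edgeR). Over its tested genes the median was 0.10 on the log2 scale.

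Of 18 Polycomb and trithorax genes, whose products keep Hox clusters silent or active, edgeR called 0, with an unadjusted p below 0.05 for 4 and 0 called by DESeq2 or limma-voom. Those nearest to the threshold were Rnf2, at a mean of 132.3 CPM in the controls and 100.05 in dCKO tissue (edgeR adjusted p = 0.0844), and Bmi1, at 58.8 and 44.6 CPM (edgeR adjusted p = 0.0878). Rnf2 was called in the fit over every gene with at least 1 count. Of 10 genes beside or inside the clusters, 6 were tested and edgeR called 0, with an unadjusted p below 0.05 for 2 and 0 called by DESeq2 or limma-voom. These 2 were Calcoco1, at a mean of 41.7 CPM in the controls and 54.0 CPM in dCKO tissue, and Mtx2, at 67.2 and 55.1 CPM. Both dCKO libraries were above all controls for 5 of the 10, against 17% of all genes with a count. The 5 were Smug1, Calcoco1 and, with few counts, Evx2, Skap1 and Hotair. Mtx2 and Lnp were below all controls, against 13.5% of all genes. Skap2, near cluster A, measured 2.63, 7.30 and 4.28 CPM in the controls and 6.56 and 8.27 CPM in the dCKO libraries, and the groups overlapped.

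**Figure D5:**
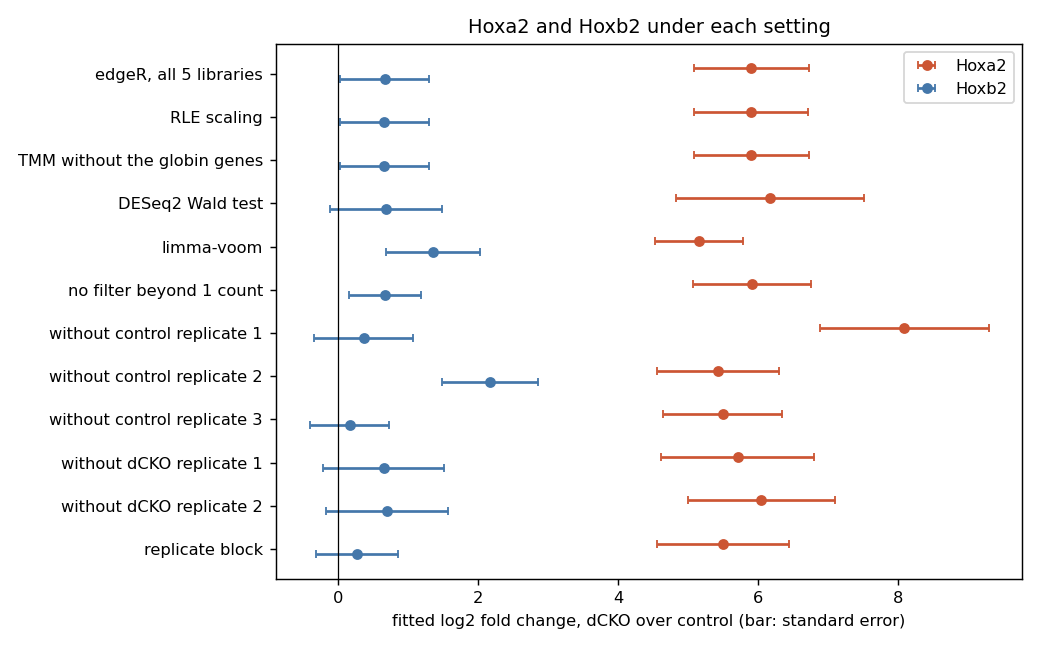
Fitted log2 fold change of Hoxa2 (red) and Hoxb2 (blue), dCKO over control, with its standard error, for all libraries and 11 alternatives. Hoxa2 lies between 5.15 and 8.09 in every one, and Hoxb2 moves most when control replicate 2 is left out, to 2.17.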

How the data were processed

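The authors deposited raw read counts per gene symbol for 5 libraries (3 control, 2 dCKO), whole numbers with different totals. The programs HTSeq (0.5.4p3) and DESeq (1.16.0) and the build mm9 come from the submitters' processing notes. An aligner, an annotation and a strand setting were not found in the sources used here. Their second deposited table holds, per the file headers, a signal (mean normalized counts), the fold change as a ratio, its log2 value, a p-value and an adjusted p-value. There, all 1386 genes at 0 in the controls, symbols listed once, had the same control mean (within 0.0001), that of 1 count added to each library. Count columns headed WT were matched to the control titles by replicate number.

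Counts were tested with edgeR 4.0.16 in R 4.3.3. Genes were kept by filterByExpr (minimum count 10, total 15), scaled by TMM and compared by the two-sided quasi-likelihood F test. Adjusted p-values are Benjamini-Hochberg values over every gene tested, called below 0.05. The standard error (SE) is the size of the fitted log2 fold change divided by √F. On simulated counts the code was tested and recovered most of the changed genes. Alternatives were RLE scaling, TMM without globins, DESeq2 1.42.0, limma-voom (limma 3.58.1), 1 count in all, a stricter filter, each library left out, and a replicate block. The fits over every gene with 1 count that also leave out a library were chosen after seeing the data. Lengths are those of each gene's longest coding transcript in GENCODE M21.

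The members and lists were chosen with earlier results of these data known. Values in every library were given for the 8 Hox genes with the highest mean level, any called and paralogue groups 1 to 3, and counts for the others; some genes are not reported here. From each list up to 3 genes with the smallest p, the most abundant and any called were named. Hand1, Pax1, Twist1, Hoxa11os and the markers at 0 were named after their values were seen. Counts of the 27 rows whose symbols read as dates were kept in the totals. Libraries of a group differed beyond counting noise in each pair (lowest chi-square per gene 4.28), so none were merged.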

Additional observations from a re-analysis of the deposited data

How the results depend on the processing

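Hoxa2 was called higher and no Hox gene lower under RLE scaling, TMM without the globin genes, DESeq2, limma-voom, the unfiltered table, the replicate block and with each library left out. These fits tested 2 or 3 Hox genes, or 30 with the unfiltered table, so in most of them few could be called lower. Hoxa2 entered all but the unfiltered fit only through the dCKO libraries. Under the stricter filter no Hox gene was abundant enough to be tested, so it gives no value. With single libraries left out the number of all genes called ranged from 442 to 1637, against 816, and Hox genes called stayed at 1. Hoxb2 passed in 1 of its 16 alternatives, the unfiltered table without control replicate 2. The summed Hox level moved by less than the spread between libraries under other scalings. With 1 library left out the mean ranged from 3.04 to 4.81 CPM in the controls and was 8.58 or 11.6 CPM in dCKO tissue. Leaving out 1 of so few libraries cannot move a mean beyond that spread, so this is no check. The count of Hox genes seen in a dCKO library fell from 19 to 15.7 and from 18 to 12.8 at the depth of the smallest library. With the replicate number as a block, 2121 genes were called, Hoxa2 among them (log2 fold change 5.51, edgeR adjusted p = 5.14e-04). Hoxb2 was not called (log2 fold change 0.28, edgeR adjusted p = 0.783). No dCKO library carries the number 3, so control replicate 3 added nothing to the group difference in that fit. Libraries with the same number did not deviate together (correlations of 0.08 and −0.004), so the numbers were not taken to pair the samples, and the cause of the higher count was not tested. Depth limits all other Hox genes, most of which had fewer than 10 counts over all libraries.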
